A study of Meloidogyne incognita with 75 samples.

Results

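Single animals of Meloidogyne incognita, a root-knot nematode that parasitises plants, were compared at the moult of the fourth juvenile stage. The 14 libraries titled J4_moulting were set against the 8 libraries titled J4, which makes 22 of the 75 libraries of the series. All transcripts of the full count table were compared, and those raised in every moulting animal were set apart from those raised in only some. The members of both groups are fourth-stage juveniles, and per the labels' protocols each animal was picked by pipette, staged on its morphology under the microscope, punctured singly and its messenger RNA copied to cDNA. One library stands for one animal. No treatment is given for either group. Age, strain, host plant and sex are not given for them in the sources used here, whereas other libraries are titled J4_female, female and male, and the male libraries also carry a tag reading J4_male. The other stages, used below for context, are pre_J2, par_J2 and J3.

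A nematode grows by shedding its cuticle, a collagen-rich coat, after the epidermis has laid down the next one underneath. In Caenorhabditis elegans many genes for cuticle collagens and for the enzymes that process them switch on in a pulse once in each moulting cycle, at different moments of the cycle. In root-knot nematodes the swollen juveniles moult inside the root without feeding, the adult female stays swollen and sedentary, and the male turns into a slender worm within the last juvenile cuticle and leaves the root.

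The files hold transcript identifiers such as Mi_14308.1, a gene number followed by an isoform number, but no gene names. Transcripts therefore appear under these identifiers, without a function. For the same reason, lists of cuticle, moulting, germline and host genes could not be read, and the stage labels could not be checked against marker genes. Total counts ran from 9727803 to 26234699 in J4_moulting, with a mean of 17182853 ± 4746850 (SD, n = 14), and from 3265447 to 15503915 in J4, with a mean of 10927438 ± 3749509 (SD, n = 8). The moulting libraries were thus deeper (two-sided exact permutation test over 319770 splits, p = 0.00439, adjusted over 3 library measures p = 0.0132). At a common depth of 3000000 counts, 31174 ± 3856 transcripts were detected in J4_moulting and 32312 ± 3748 in J4 (SD, n = 14 and 8, the same exact test, adjusted p = 0.719). The 50 most abundant transcripts of a library took 24.5 ± 13.9% of its counts in J4_moulting and 22.3 ± 12.1% in J4 (SD, n = 14 and 8, exact test, adjusted p = 0.719). A level below is a CPM value, a count scaled to the library total and not divided by transcript length, so that an order of levels between transcripts is an order of their counts. A level of 0 allows up to 0.308 CPM in a moulting library and up to 0.919 CPM in a J4 library, the limit that 3 counts give at the lowest depth of each group. This covers counting error only, since the libraries carry no molecular identifiers.

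Of 45378 transcripts, 32417 passed the filter on low counts and were tested with edgeR's quasi-likelihood test. With a Benjamini-Hochberg adjusted p below 0.05 and a change of 2-fold or more required, 1651 transcripts were higher in moulting animals, 5.09% of those tested, and 1106 were lower, 3.41%. The transcripts called higher took 11.1 to 33.6% of the counts of a moulting library, with a median of 25.1%, against 0.822 to 3.72% of a J4 library, with a median of 2.08%. The transcripts called lower took 1.70 to 4.15% of a moulting library, with a median of 2.68%, against 12.3 to 33.0% of a J4 library, with a median of 18.5%. These shares describe the calls and are no separate evidence for them. As each library holds a whole animal, fewer cells of a type and less RNA per cell cannot be told apart.

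A transcript was counted as raised in a moulting animal when it had at least 1 CPM there and at least 2 times the level of the highest of the 8 J4 libraries. By this rule 22 of the 1651 transcripts called higher were raised in every one of the 14 animals, 1.33% of them. Another 1541, or 93.3%, were raised in some animals and not in others, and 88 were raised in none. Within the 1541, 376 were raised in 1 to 3 animals, 1041 in 4 to 10 and 124 in 11 to 13. The median over all transcripts called higher was 6 animals. The classes were made from the same values as the calls and are given as a description. With every library thinned to 3000000 counts, which removes the difference in depth, 22 transcripts were raised in every animal and 1533 in some. With the 2-fold margin and the 1 CPM minimum both dropped, 69 of the 1651 transcripts called higher had their lowest moulting library above the highest J4 library. Over all 32417 transcripts tested the number was 69 as well.

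**Figure D1:**
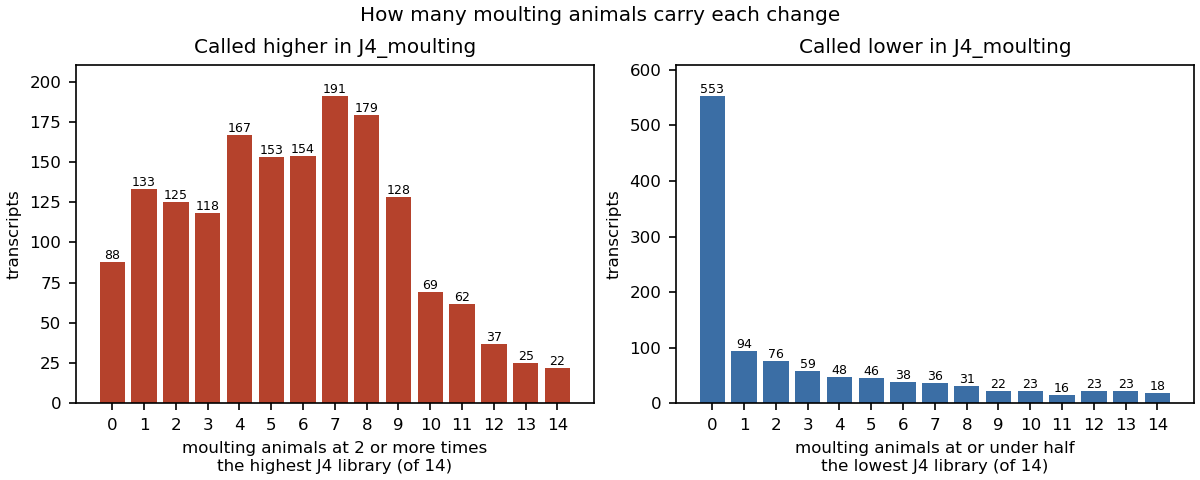
Number of transcripts (vertical axis) by the number of the 14 moulting animals in which they were raised (left, 1651 transcripts called higher in J4_moulting) or lowered (right, 1106 called lower). Most transcripts called higher lie between the ends of the scale, and 22 reach all 14 animals; of those called lower, 18 do.

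The 22 transcripts raised in every moulting animal had median levels of 3.42 to 224 CPM in J4_moulting and of 0 to 10.9 CPM in J4. Their log2 fold changes lay between 3.93 and 8.41, with a median of 6.32, beside a median of -0.04 over all transcripts tested. The lowest moulting animal was 2.10 to 6.43 times above the highest J4 library. The moulting animals themselves spread widely, the highest being 4.38 to 94.8 times the lowest. All 22 come from different genes by their numbers.

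A pair of sets, each of 6, stand for them, the first taken by the smallest p and the second by the highest median level among the rest. Mi_14308.1 measured 46.1, 116 and 210 CPM as the lowest, median and highest moulting library, against 2.09, 8.81 and 18.9 CPM in J4. Every moulting animal was well above every J4 animal, with replicate 4 the lowest and replicate 1 the highest. Its log2 fold change was 3.93 ± 0.38 (SE, edgeR, adjusted p = 5.22e-06), with the smallest p of all transcripts tested. Mi_43822.1 had 24.2, 85.5 and 308 CPM in J4_moulting, against 0, 1.71 and 3.76 CPM in J4. Here the gap between the groups was among the widest of the 22, the lowest moulting animal lying 6.42 times above the highest J4 library, and the log2 fold change was 6.65 ± 0.72 (adjusted p = 1.03e-05). Mi_03541.1 had 4.76, 70.5 and 189 CPM, against 0, 0.160 and 1.84 CPM in J4. Replicate 14 was far below the other moulting animals, next to replicate 7 at 17.3 CPM, yet still above the J4 range. The log2 fold change was 7.75 ± 0.86 (adjusted p = 1.16e-05).

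Mi_07831.1 had 38.8, 130 and 617 CPM in moulting animals, against 3.22, 5.68 and 9.35 CPM in J4, with a log2 fold change of 5.06 ± 0.58 (adjusted p = 1.53e-05). Unlike the pair before it, it was detected in every J4 library. Mi_24210.1 was the rarest of the 6, with 1.46, 14.1 and 59.4 CPM in J4_moulting, against 0, 0.0769 and 0.481 CPM in J4, where 4 of the 8 libraries held no count of it. It changed by 7.19 on the log2 scale, with an SE of 0.84 (adjusted p = 1.57e-05). Mi_37238.1 had 11.4, 35.3 and 84.9 CPM, against 0, 1.55 and 4.90 CPM in J4, and its moulting libraries were among the tightest of the class, with a log2 fold change of 4.94 ± 0.58 (adjusted p = 1.57e-05).

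Among the more abundant ones, Mi_15067.1 reached 79.8, 224 and 3061 CPM in J4_moulting, against 2.90, 10.9 and 24.8 CPM in J4. The groups did not overlap, but the moulting animals were uneven, with replicate 12 highest, then replicate 8 at 1375 CPM and replicate 5 at 924 CPM. Its log2 fold change was 5.72 ± 0.80 (adjusted p = 9.02e-05). Mi_05407.1 had 17.4, 160 and 692 CPM, against 0, 0.937 and 6.43 CPM in J4, and Mi_13614.1 had 42.3, 151 and 620 CPM, against 0.845, 6.14 and 12.6 CPM in J4. Their log2 fold changes were 7.35 ± 0.97 and 5.28 ± 0.67 (adjusted p = 4.82e-05 and 3.20e-05). Mi_14280.1, with 28.0, 151 and 1244 CPM against 0.845, 4.95 and 9.49 CPM in J4, bears the gene number next to Mi_14281.1, with 14.8, 94.7 and 786 CPM against 0, 2.81 and 6.26 CPM. Both were lowest in moulting replicate 13 and highest in replicate 12, and their log2 fold changes were 5.95 ± 0.76 and 6.18 ± 0.88 (adjusted p = 3.81e-05 and 0.000106). Mi_06125.1 had 2.80, 94.4 and 236 CPM in moulting animals, while 5 of the 8 J4 libraries held no count and the highest had 1.25 CPM. Replicate 14 was again the lowest moulting library, and the log2 fold change was 8.34 ± 1.12 (adjusted p = 7.08e-05).

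**Figure D2:**
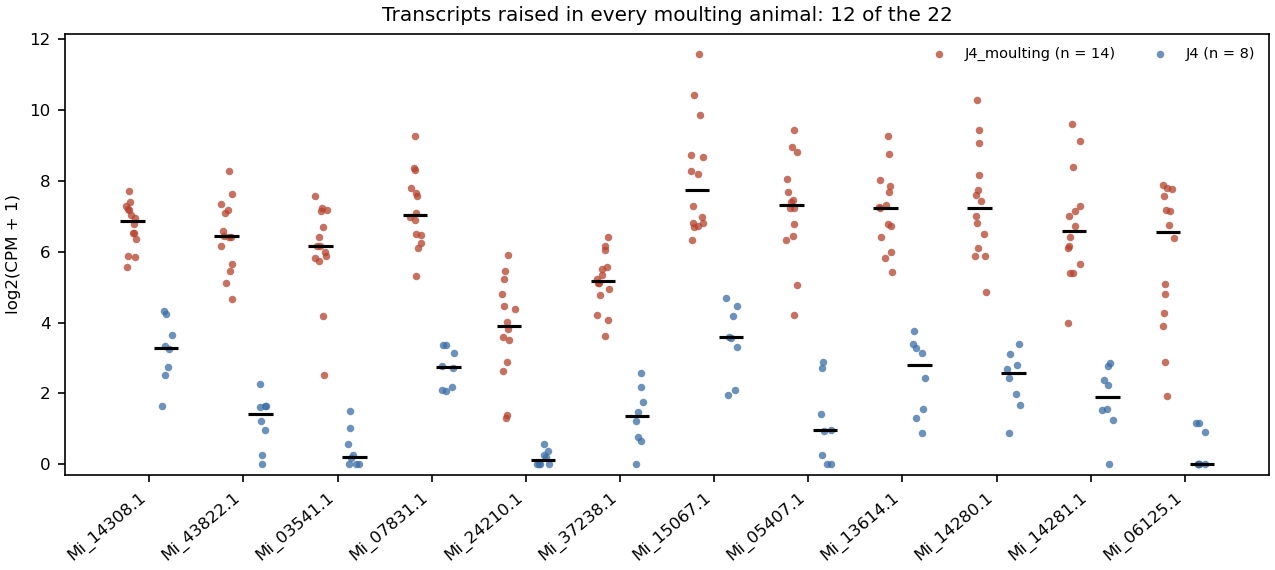
Level in each library, as log2(CPM + 1), of 12 transcripts raised in every moulting animal. Each point is one animal (J4_moulting left, J4 right of each pair) and the bar is the group median; for Mi_14308.1 the lowest moulting library stands at 46.1 CPM and the highest J4 library at 18.9 CPM.

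The extremes of the 22 fell unevenly on the animals. Replicate 14 was the lowest moulting library for 6 of them and replicate 4 for 5, while replicate 6 was the highest for 6, replicate 13 for 5 and replicate 12 for 4. Of the 22 gene numbers, 8 (36.4%) had a directly neighbouring number in the same class. Among the 18 lowered in every moulting animal, described below, 2 (11.1%) had one. The shares were 314 of 1628 (19.3%) among all genes called higher and 129 of 1103 (11.7%) among those called lower. A larger class offers more numbers that can be neighbours, so shares of classes of unlike size have no common baseline. The neighbours among the 22 were Mi_06522 with Mi_06523, Mi_14280 with Mi_14281, Mi_37238 with Mi_37239 and Mi_43822 with Mi_43823. Across the 14 moulting libraries the levels of each pair had Pearson correlations of 0.835, 0.929, 0.860 and 0.809 in that order on the log2 scale, a description over animals in which both transcripts share the library and its depth. How the authors' counting dealt with reads shared by near-identical copies is not given in the sources used here, so that counts within such pairs are uncertain.

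At the edge of the class stood Mi_13401.1, the transcript with the smallest margin inside it, with 30.5, 57.8 and 203 CPM in J4_moulting against 0.194, 3.81 and 14.5 CPM in J4, a margin of 2.10 times. Just outside was Mi_32137.1, raised in 13 of the 14 animals, with 22.2, 58.9 and 147 CPM against 1.61, 4.63 and 11.3 CPM in J4. Its lowest animal, replicate 14, lay 1.96 times above the highest J4 library. In all, 25 transcripts were raised in 13 animals, and replicate 14 was the missing one for 7 of them, replicates 7 and 9 for 4 each and replicate 13 for 3. 2 of the 25 were picked out after their values had been seen. Mi_38642.1 was the most abundant, with 73.4, 3293 and 12554 CPM in moulting animals against 9.61, 20.5 and 232 CPM in J4, replicate 6 being the missing animal. Mi_32129.2 held no count in any of the 8 J4 libraries and had 0, 90.2 and 366 CPM in J4_moulting, only replicate 13 being at 0. The first isoform of the same gene, Mi_32129.1, had 0.513, 15.3 and 98.9 CPM in moulting animals against 0.570, 3.32 and 11.4 CPM in J4 and did not pass the test (edgeR, adjusted p = 0.0613).

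The transcripts raised in 4 to 10 animals included the highest level of any transcript called higher. The 6 with the highest mean moulting level among those called were Mi_41897.1, Mi_05756.1, Mi_00267.1, Mi_00463.1, Mi_26463.1 and Mi_10989.1. Mi_41897.1 had 4.04, 129 and 81864 CPM as lowest, median and highest moulting library, against 0, 2.93 and 918 CPM in J4. Replicates 6, 7, 9 and 2 held it at 81864, 54253, 27283 and 16012 CPM, replicate 14 followed at 3816 CPM, and the other 9 moulting animals lay at 441 CPM or below. Its log2 fold change was 8.05 ± 2.51 (edgeR, adjusted p = 0.0451), a call that was lost when any 1 of 11 libraries was left out, these being moulting replicates 2, 6, 7 and 9 and all J4 replicates but 5 (adjusted p of 0.0518 to 0.0804).

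Mi_05756.1 was the broadest of these, raised in 9 animals, with 15.8, 4006 and 32589 CPM in J4_moulting against 0, 2.68 and 1003 CPM in J4. All moulting animals but replicate 14 held at least 830 CPM of it. Its log2 fold change was 7.22 ± 1.89 (adjusted p = 0.0158). Mi_00267.1, with 17.2, 1100 and 33798 CPM against 0.322, 2.97 and 1210 CPM in J4, and Mi_26463.1, with 4.37, 864 and 13748 CPM against 0, 1.46 and 549 CPM, were raised in the same 6 animals, replicates 1, 2, 5, 6, 7 and 9. Their log2 fold changes were 6.86 ± 1.95 and 6.94 ± 1.83 (adjusted p = 0.0261 and 0.0167). Mi_00463.1, with 3.89, 894 and 17051 CPM against 2.90, 66.1 and 954 CPM in J4, was raised in replicates 1, 2, 6, 7 and 9 (log2 fold change 5.77 ± 1.599, adjusted p = 0.0227). Mi_10989.1 was raised in replicates 2, 6, 7, 9 and 14, like Mi_41897.1, with 0, 4.24 and 22057 CPM in J4_moulting against 0, 2.93 and 5.82 CPM in J4, and its median moulting animal lay within the J4 range (log2 fold change 10.91 ± 2.87, adjusted p = 0.0172). Without J4 replicates 7 and 8 none of the 6 kept its call (adjusted p of 0.0538 to 0.134).

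Transcripts that rose in some animals did not all pass the test. Another 480 were raised in 4 to 10 animals without being called. The 3 of them with the highest mean moulting level were Mi_15580.1, with 0.343, 62.7 and 78139 CPM in J4_moulting against 0, 0.880 and 824 CPM in J4 (log2 fold change 8.01 ± 2.68, edgeR, adjusted p = 0.0632), Mi_18046.1, with 0, 558 and 29650 CPM against 0, 0.683 and 827 CPM (7.38 ± 2.57, adjusted p = 0.0766), and Mi_16766.1, with 0, 733 and 27912 CPM against 0, 0 and 811 CPM (6.92 ± 2.74, adjusted p = 0.126). The moulting animals in which the last pair were raised were replicates 1, 2, 6, 7, 9 and 14, and Mi_15580.1 shared them except replicate 1. Replicate 4, at 939 CPM of Mi_18046.1 and 1362 CPM of Mi_16766.1, was above the highest J4 library but short of the 2-fold margin. A p above the threshold does not show that the stages were alike for these transcripts.

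**Figure D3:**
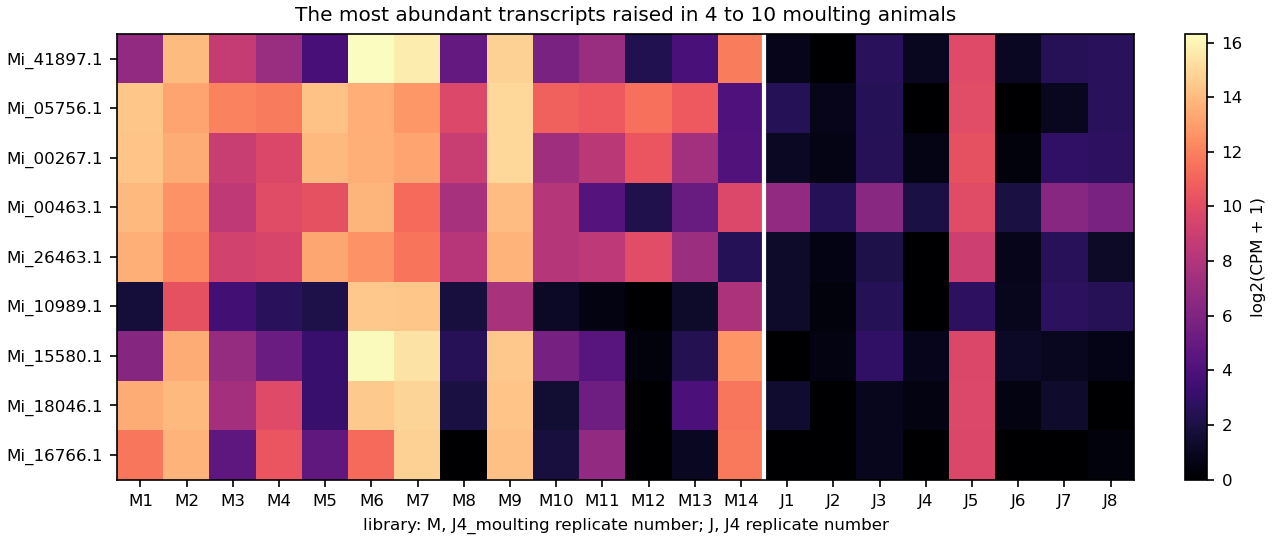
Level of 9 abundant transcripts, as log2(CPM + 1) by colour, in the 14 moulting libraries (M1 to M14, left of the white line) and the 8 J4 libraries (J1 to J8). The brightest cells gather in M1, M2, M5, M6, M7, M9 and M14, not all of them for each transcript. Mi_05756.1 also stands at 1546 to 4361 CPM in M3, M4 and M10 to M13. Among the J4 libraries J5 is the brightest. Mi_41897.1 reaches 81864 CPM in M6.

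One J4 library bore on these values. J4 replicate 5, the shallowest of the 22 libraries with 3265447 counts, held Mi_41897.1, Mi_05756.1, Mi_00267.1, Mi_26463.1, Mi_15580.1, Mi_18046.1 and Mi_16766.1 at 918, 1003, 1210, 549, 824, 827 and 811 CPM. The other 7 J4 libraries reached no more than 0.884 to 6.48 CPM of them. Its levels were 1.06 to 3.996% of the highest moulting library for the 7 transcripts. Mi_00463.1 stood there at 954 CPM, against at most 105 CPM in the other J4 libraries, whereas Mi_10989.1 stood at 5.82 CPM, against at most 5.58 CPM. Replicate 5 set the highest J4 level for 486 of the 1651 transcripts called higher, more than any other J4 library, the next being replicate 3 with 314. Against the other 7 J4 libraries alone, Mi_05756.1 and Mi_00267.1 were raised in 14 animals, Mi_41897.1 and Mi_26463.1 in 13, Mi_18046.1 and Mi_16766.1 in 11 and Mi_15580.1 in 10. In a fit without replicate 5 the log2 fold change was 12.99 ± 2.84 for Mi_41897.1 (edgeR, adjusted p = 0.00574), 12.49 ± 1.85 for Mi_05756.1 (adjusted p = 0.000199), 12.17 ± 2.00 for Mi_00267.1 and 11.64 ± 1.84 for Mi_26463.1. The 3 uncalled transcripts were then called, with 13.33 ± 3.09 for Mi_15580.1 (adjusted p = 0.00856), 13.81 ± 2.95 for Mi_18046.1 (adjusted p = 0.00491) and 15.45 ± 3.27 for Mi_16766.1 (adjusted p = 0.00469). The number raised in every animal among those called was 38 when this library was left out of the highest J4 level alone, and all 22 were among them. The part of its low depth in these levels was not tested.

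The animals differed in how many of the 1041 partly raised transcripts they carried. Replicates 3, 8, 5, 11, 12, 4 and 13 had 708, 690, 689, 674, 663, 652 and 650 of them raised, replicates 1 and 2 had 553 and 458, and replicates 10, 6, 9, 7 and 14 had 320, 254, 251, 210 and 196. Animals with few of them raised did not all hold a small share of counts. The 1041 transcripts took 27.3, 25.8 and 22.7% of all counts in replicates 6, 9 and 7, where few were raised, against 13.9, 14.01 and 11.1% in replicates 8, 11 and 13, where many were. Replicates 14 and 10, with few raised, held 6.43 and 10.2%, and replicate 5, with many, held 26.4%. In replicates 6, 9 and 7 the 5 most abundant of them alone took 14.8, 12.4 and 12.3% of the library, and the 50 most abundant transcripts of all kinds took 44.6, 52.8 and 47.9%, against 10.6 to 27.6% in the other moulting animals. The part of this uneven composition in the number of transcripts raised was not tested.

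The 1041 transcripts were chosen as raised in 4 to 10 animals, so none of them could be raised in all 14. That choice also limits the overlaps that follow, which leave out transcripts raised in more animals. For a pair of animals, the overlap was taken as the transcripts raised in both as a percentage of those raised in either, and over the 91 pairs it ran from 7.41 to 72.2%, with a median of 25.1%. Replicates 3 and 4 shared the most, at 72.2%, and replicates 5 and 8 shared 65.0%. Replicates 6 and 7 shared 50.6%, and replicate 14 was most like replicate 7, at 46.0%. Replicates 6 and 11 shared the least, at 7.41%. Replicate 10 had no close partner, its highest overlap being 28.6% with replicate 2. Its median overlap of 23.9% was nevertheless above the 15.3, 12.4, 16.8 and 12.3% of replicates 6, 7, 9 and 14. An overlap is also limited where the animals of a pair differ in how many transcripts they had raised. The pairs share the J4 libraries that set the bar, and their overlap is a description.

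**Figure D4:**
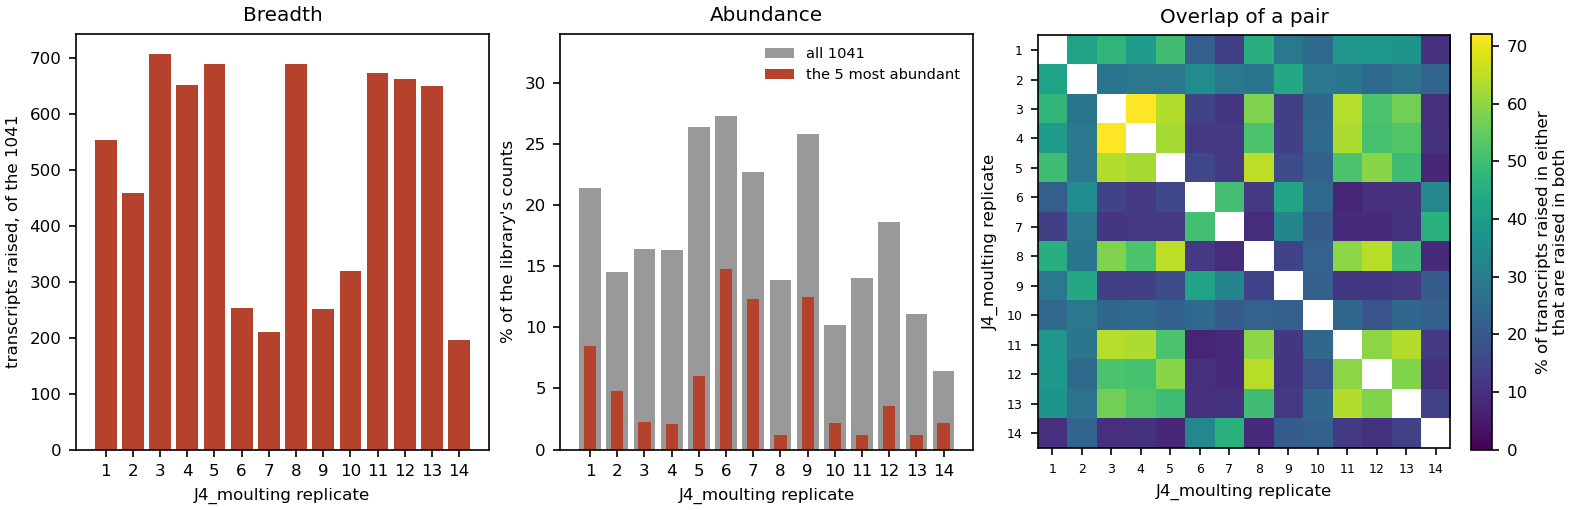
The 1041 transcripts called higher and raised in 4 to 10 moulting animals. Left, how many of them were raised in each animal; middle, the percentage of the library's counts in all of them and in the 5 most abundant; right, for each pair of animals, the percentage of the transcripts raised in either that were raised in both. Replicates 6, 7 and 9 carry few of the transcripts but a large share of counts, and replicates 3 and 4 overlap most, at 72.2%.

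Patterns like that of Mi_41897.1 were looked for over the 14 moulting libraries among 13687 transcripts. The 3 likest by Pearson correlation of log2 levels were Mi_15580.1 (0.988), Mi_11040.1 (0.955) and Mi_32987.1 (0.939), each with n = 14. Mi_11040.1 had 0, 2.63 and 1478 CPM in J4_moulting against 0, 2.04 and 11.7 CPM in J4 and was not called (edgeR, adjusted p = 0.0571), though it was when any 1 of moulting replicates 8, 11, 12 and 13 was left out (0.0438 to 0.0478). Mi_32987.1 had 1.56, 9.53 and 185 CPM against 0.580, 3.38 and 6.12 CPM and was called with a log2 fold change of 4.09 ± 1.05 (adjusted p = 0.0149). All 3 were highest in moulting replicate 6, as Mi_41897.1 was.

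Among the transcripts lower in moulting animals, lowered in an animal means at least 2 times below the lowest of the 8 J4 libraries, that library being at 1 CPM or more. Of the 1106 called lower, 18 (1.63%) were lowered in every moulting animal, 535 in some and 553 in none. In 324 of the 1106 a J4 library lay under 1 CPM, so these could not be counted as lowered. For 57 of the 1106 the highest moulting library was below the lowest J4 library, with neither the margin nor the 1 CPM minimum asked. Over all 32417 transcripts tested the number was also 57. The 18 had median levels of 0 to 39.1 CPM in J4_moulting and of 7.40 to 543 CPM in J4, and log2 fold changes of -11.04 to -2.35, with a median of -6.58. Without J4 replicate 8, 30 transcripts were lowered in every animal.

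Mi_01156.1 measured 0.693, 3.59 and 27.4 CPM as the lowest, median and highest moulting library, against 70.4, 356 and 2588 CPM in J4. The groups were well apart, and replicate 1 was the moulting animal nearest to the J4 range. Its log2 fold change was -7.53 ± 0.82 (edgeR, adjusted p = 1.03e-05). Mi_28063.1 resembled it, with 0.394, 3.78 and 25.3 CPM in J4_moulting against 59.9, 435 and 4325 CPM in J4 and a log2 fold change of -7.87 ± 0.91. In both transcripts J4 replicate 1 was the highest and J4 replicate 4 the lowest of the J4 libraries. Mi_05839.1 had 2.08, 5.83 and 13.7 CPM against 27.8, 44.7 and 160 CPM, Mi_03395.1 had 1.07, 2.28 and 5.95 CPM against 12.6, 45.4 and 823 CPM, and Mi_04273.1 had 0.566, 3.14 and 8.22 CPM against 18.5, 41.9 and 84.3 CPM. None of these was lost altogether, each being detected in all 14 moulting animals. Their log2 fold changes were -3.53 ± 0.41, -6.77 ± 0.80 and -3.62 ± 0.43. Replicate 1 was the highest moulting library for 8 of the 18.

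Of the transcripts called lower and lowered in 4 to 10 moulting animals, the 3 with the highest mean J4 level spread widely between J4 animals. Mi_00696.1 had 2.80, 23.9 and 795 CPM in J4_moulting against 118, 3529 and 91936 CPM in J4, and was lowered in 9 moulting animals. The J4 animals alone spanned the range from replicate 6, the lowest, to replicate 3, the highest, and the log2 fold change was -7.68 ± 1.31 (edgeR, adjusted p = 0.000664). Mi_20124.1 had 3.74, 207 and 3283 CPM against 1529, 10480 and 35266 CPM and was lowered in 10 animals (-3.997 ± 1.12, adjusted p = 0.0249), a call lost without J4 replicate 6 (-2.98, adjusted p = 0.0920). Mi_26885.1 had 0.924, 9.35 and 405 CPM against 14.2, 623 and 37207 CPM and was lowered in 7 animals (-7.11 ± 1.33, adjusted p = 0.00140). In each, moulting animals at the top of their range overlapped with the lowest J4 libraries.

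The levels in the other 6 stages had no part in the comparison. Of the 22 transcripts raised in every moulting animal, 19 had their highest other stage median in male, 86.4%, and 3 in female. Among all 1651 called higher, male was the highest other stage for 707 (42.8%), and among all tested for 6166 (19.0%). The male median lay above the J4_moulting median for 13 of the 22. Over the 22, the median of the stage medians was 63.5 CPM in J4_moulting, 38.5 CPM in male, 1.01 CPM in J3, 0.710 CPM in J4_female, 0.624 CPM in J4, 0.328 CPM in female and 0 in pre_J2 and par_J2. Mi_05407.1 had a median of 160 CPM in J4_moulting, 450 CPM in male and 0 in female, and Mi_43822.1 had 85.5 CPM in J4_moulting, 126 CPM in male and 0.792 CPM in female. The male libraries were uneven, with a library at 0 for 19 of the 22. The 3 that were highest in female were Mi_15067.1, Mi_14280.1 and Mi_14281.1, whose medians were 224, 151 and 94.7 CPM in J4_moulting and 28.9, 41.4 and 7.70 CPM in female.

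All 18 transcripts lowered in every moulting animal had a male median under their lowest J4 library. The same held for 434 of the 535 lowered in some animals (81.1%) and 622 of the 1106 called lower (56.2%). Over all 32417 tested it held for 6153 (19.0%). In pre_J2 the 18 were split. Mi_00343.1, Mi_05839.1, Mi_35948.1, Mi_04273.1 and Mi_03681.1 had pre_J2 medians of 79.5, 33.9, 29.9, 27.6 and 20.6 CPM. The last of these lay above its J4 median of 7.40 CPM. The others had a pre_J2 median of at most 1.40 CPM. Over the 18, the median of the stage medians was 1.20 CPM in J4_moulting, 0.175 CPM in male, 0 in pre_J2, 24.97 CPM in par_J2, 51.3 CPM in J3, 54.1 CPM in J4, 55.9 CPM in J4_female and 135 CPM in female. Male was the highest other stage for none of the 18, female for 11, J3 for 5, and J4_female and par_J2 for 1 each. Over all transcripts tested, male was the highest other stage for 19.0%, female for 7.79%, J3 for 21.9%, J4_female for 15.3% and par_J2 for 17.1%. Among all 1106 called lower the shares were 1.99, 16.6, 22.5, 11.1 and 31.3% in that order. Mi_28063.1 had a median of 0.164 CPM in male and of 2036 CPM in female.

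**Figure D5:**
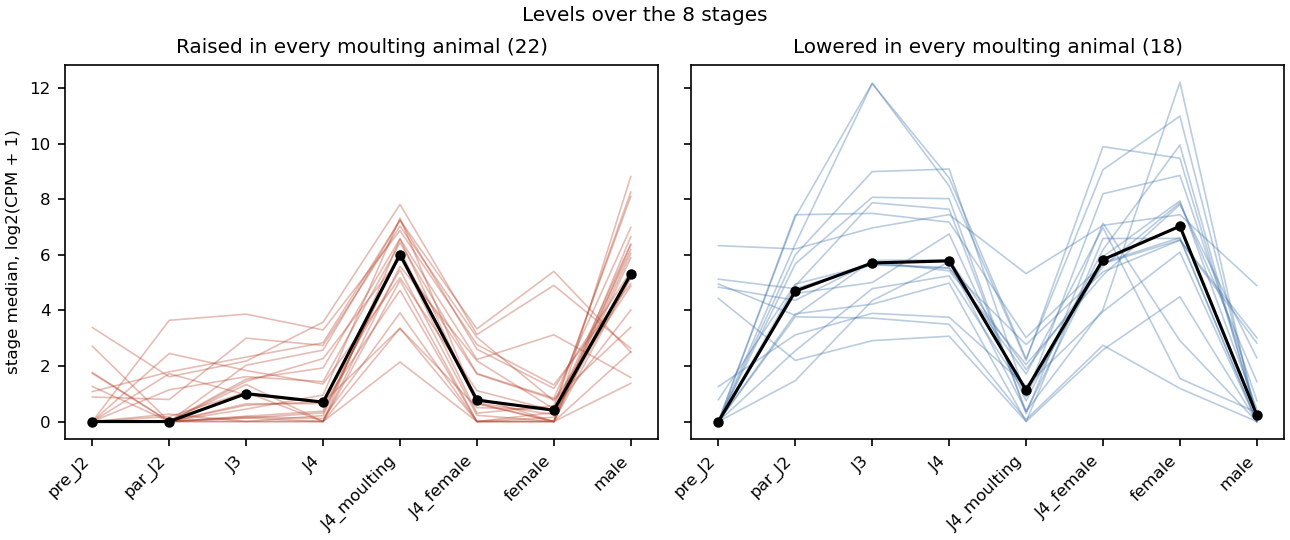
Stage medians, as log2(CPM + 1), over the 8 stages for the 22 transcripts raised (left) and the 18 lowered (right) in every moulting animal. Thin lines are transcripts and the black line is their median, which on the left stands at 63.5 CPM in J4_moulting and 38.5 CPM in male, and on the right at 1.20 CPM and 0.175 CPM.

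A test of male against female used no library of the moulting comparison. Of 24617 transcripts tested there, 4031 (16.4%) were higher in male and 3278 (13.3%) lower. The transcripts called lower at the moult were lower in male for 448 of the 853 tested, 52.5%, and higher for 13, and their median log2 fold change was -2.25, beside 0.07 over all tested. Those called higher at the moult were higher in male for 458 of the 1252 tested, 36.6%, and lower for 61, with a median of 1.40. Of the 22 raised in every animal 11 passed the filter, 7 of them higher in male and 0 lower (1 lower at an unadjusted p under 0.05), and of the 18 lowered in every animal 17 passed, 16 of them lower in male. A transcript that passes a filter on low counts through only the stage where it is high had to differ, so these counts over the small classes are given as a description. Among the examples, Mi_43822.1 had a log2 fold change of 8.59 ± 1.76 in male against female (edgeR, adjusted p = 0.00232), Mi_14308.1 of 3.02 ± 1.06 (adjusted p = 0.0428), Mi_01156.1 of -13.03 ± 2.32 (adjusted p = 0.000900) and Mi_28063.1 of -13.35 ± 2.21 (adjusted p = 0.000541).

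Of the 1041 partly raised transcripts, 716 were tested there, 237 of them (33.1%) being higher in male and 35 (4.89%) lower. Of the named ones, Mi_05756.1, Mi_00267.1, Mi_00463.1 and Mi_26463.1 were higher in male, with log2 fold changes of 7.93 ± 2.07, 8.40 ± 1.89, 6.31 ± 1.45 and 6.97 ± 2.03 (edgeR, adjusted p = 0.00990, 0.00417, 0.00472 and 0.0179). Mi_41897.1 and its likest transcript Mi_15580.1 were near absent from both sexes, reaching at most 19.1 and 18.9 CPM in a male library and 16.5 and 11.4 CPM in a female library, and did not pass the test (adjusted p = 0.452 and 0.566). Neither did Mi_10989.1, Mi_18046.1 and Mi_16766.1 (adjusted p = 0.2503, 0.516 and 0.460). Transcripts higher in male in that test made up 13.8 to 27.9% of a moulting library, with a median of 18.2%, against 3.19 to 11.8% of a J4 library, with a median of 7.98%. Those lower in male made up 11.9 to 19.9% of a moulting library, with a median of 14.6%, against 22.5 to 52.3% of a J4 library, with a median of 31.6%. In neither list did the groups overlap. Since the sex of the J4 and J4_moulting animals is not given, its part in these differences was not tested.

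J4_female against J3, also free of the libraries compared here, gave few calls. Of 29954 transcripts tested, 183 (0.611%) were higher in J4_female and 81 (0.27%) were lower. Of the transcripts called higher at the moult, 16 of 1376 tested (1.16%) were higher in J4_female, and of the 22 raised in every animal 1 of 14, Mi_26735.1. Its log2 fold change there was 5.13 ± 1.21 (edgeR, adjusted p = 0.0456). The J4_female libraries held 0 to 365 CPM of it with a median of only 3.55 CPM. In J3 the median was 1.52 CPM and the highest library had 3.08 CPM. Of the 18 lowered in every animal edgeR called 0 in either direction, 2 of them being lower and 1 higher at an unadjusted p under 0.05. Where 2 or more transcripts of a gene were tested at the moult, in 705 genes, 73 genes had a call, 18 of them in all their transcripts and 55 in some. In 0 of them were transcripts called in opposite directions.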

How the data were processed

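Single-nematode libraries of Meloidogyne incognita were compared, 14 of J4_moulting against 8 of J4, grouped by their titles. HISAT2 2.2.1 and StringTie 2.2.1 were used, per the submitters' processing notes. Genome build, annotation, strand setting and how reads shared by close copies were treated: not given in the sources used here. The table deposited by the authors holds whole-number counts per transcript, not normalized, and 0 columns were left unmapped. The labels name no batch, and one that differed between the stages cannot be told apart from them.

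These 22 libraries were tested in R 4.3.3 with the quasi-likelihood method of edgeR 4.0.16 (robust), after filterByExpr and TMM scaling. A call needed a Benjamini-Hochberg adjusted p below 0.05 together with a log2 fold change of 1 or more in size. The SE was taken as the size of that change divided by the root of F. CPM were computed over library totals, and log values are log2(CPM + 1). Fits of male against female (7 and 7 libraries) and J4_female against J3 (8 and 14) were made in the same way. Alternatives used DESeq2 1.42.0 and limma 3.58.1, and Python 3.11.15, numpy 2.4.6, pandas 2.3.3 and matplotlib 3.10.9 served the rest. The self-test simulated 32417 transcripts with 200 changed and recovered 30.9% at 4-fold and 76.9% at 16-fold, with 0 called in the wrong direction and 3.26% of calls false.

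The named transcripts follow a rule. From those raised in every animal, 6 were taken by p and then 6 by median level, and the same rule gave 6 called and 3 uncalled transcripts by mean moulting level among those raised in 4 to 10 animals. It also gave 5 lowered in every animal by p, 3 lowered in 4 to 10 animals by mean J4 level and 1 on either side of the margin. Further came the 3 likest to the first partly raised one, among transcripts with a mean of 10 CPM or more over the moulting libraries. Isoforms of opposite direction were to be named as well, and there were 0. Transcripts and lists were chosen with earlier results of these data known. J4 replicates 7 and 8 were left out in an alternative because their columns stand among those of J3. The p-values measure the spread between single animals as picked.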

Additional observations from a re-analysis of the deposited data

Results flagged for a closer look

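Among 39 groups of J4 values examined for a sample far from the others, 7 stood out, and chance picks about 1 in 20 groups. All 7 were J4 replicate 5, in which the CPM was 918 for Mi_41897.1, 1003 for Mi_05756.1, 1210 for Mi_00267.1, 549 for Mi_26463.1, 824 for Mi_15580.1, 827 for Mi_18046.1 and 811 for Mi_16766.1. The other 7 J4 libraries held between 0 and 6.48 CPM of each. The groups are not independent, since they share this library. All 7 transcripts had also been picked as raised in 4 to 10 animals, a number that a high J4 library lowers by setting the bar. The rate of 1 in 20 is therefore no measure of chance for them. Over all transcripts tested, a J4 library at 10 CPM or more lay at least 10 times above every other J4 library for 62 transcripts in replicate 5, 50 in replicate 3, 40 in replicate 2 and 2 to 11 in each of the other five. Among the transcripts raised in 4 or more moulting animals the number was 15 in replicate 5, 3 in replicate 3 and 0 in each of the other six.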

How the results depend on the processing

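The 22 transcripts raised and the 18 lowered in every animal were all called again in every other fit listed here, except that the replicate block called 21 and 18 and the deposited filtered table, which leaves out transcripts with few libraries, 10 and 16. The number called higher was 1050 without J4 replicates 7 and 8 (990 of them raised in some animals), 1075 in the filtered table and 548 with the replicate block. The number called lower was 2123 in DESeq2, 1775 with library totals alone and 184 with the block. The same 16 libraries without the block, a fit added after seeing the data, gave 1458 and 776. The replicate numbers are shared names: the correlations of the 8 pairs ran from -0.144 to 0.109, 1 was over 0.1, and 1 J4 library correlated best with its own number. With another scaling in the same test, the numbers called higher and lower were 1402 and 1395 with DESeq2 size factors and 1181 and 1775 with totals. With another test, filter or set of libraries they were 2158 and 2123 in DESeq2, 1301 and 1464 in limma, 1682 and 1621 without a filter and 1129 and 1117 in a fit of all 75 libraries. The median log2 fold change over all transcripts was -0.04 with TMM, -0.18 with DESeq2 size factors and -0.29 with totals, and levels in CPM carry this shift.

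The number raised in every animal was 67 with any excess over J4, 6 with a 4-fold margin, 41 with CPM on TMM-scaled totals and 38 with J4 replicate 5 left out of the J4 range (added after seeing the data); lowered in every animal were 56, 4 and 8, and 34 without J4 replicates 7 and 8. Thinned to 3000000 counts the numbers were 22 and 17. With each library left out in turn they ran from 22 to 38 and from 18 to 30, the highest being without J4 replicate 5 and without J4 replicate 8. Leave-one-out fits gave 1345 to 1717 higher and 859 to 1225 lower. The difference in the share of the 50 most abundant transcripts, J4_moulting minus J4, was -0.6815 percentage points without J4 replicates 7 and 8, the opposite direction. The cause was not tested for any of these shifts. Of the named transcripts 10 lost their call in at least 1 alternative, Mi_41897.1 in 18 (log2 fold changes of 6.81 to 9.0004), Mi_10989.1 (4.51 to 11.25), Mi_20124.1 and Mi_32987.1 in 3 each, Mi_00267.1 and Mi_00463.1 in 2 each, and Mi_05756.1, Mi_26463.1, Mi_00696.1 and Mi_26885.1 in 1 each. The 4 transcripts named as uncalled, Mi_11040.1 among them, were called in 3 to 7 alternatives each, DESeq2 and the fit of all 75 libraries included. No named transcript changed direction in the alternatives run.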

Other observations

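The 6 transcripts with the highest single level among those raised in 1 to 3 moulting animals were picked after their values had been seen, and none of them was called (edgeR, adjusted p of 0.0609 to 0.887). Mi_06097.1 and Mi_36802.1 stood at 19878 and 17140 CPM in moulting replicate 14, where the next moulting animal had 17.4 and 10.3 CPM and the highest J4 library 56.8 and 40.2 CPM. Outside the comparison, the highest J4_female library held 10355 and 7967 CPM of this pair, and the highest male library 813 and 772 CPM. Mi_06988.1, Mi_44220.1 and Mi_37673.1 were raised in 3, 3 and 2 animals and highest in moulting replicate 9, at 35449, 18416 and 24876 CPM, with 11481, 8896 and 8906 CPM in the next moulting animal and 3610, 2081 and 3937 CPM in the highest J4 library. Mi_30138.1 was raised in replicate 6 alone, at 12929 CPM, with a moulting median of 1309 CPM and 5891 CPM in the highest J4 library.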
